A study of Mus musculus with 98 samples.

Results

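CapFb4 is a subtype of capsular fibroblasts that was high in Pi16 in these data, and one of 19 labels carried by the nonepithelial thymic stroma (NETS) of the mouse. Its members were taken here as the cells that carry this label in the deposited annotation of the age series, and they numbered 879 of 36208 cells. The age series holds single-cell RNA-seq of sorted Ter119-CD45-EpCAM- cells of wild-type C57BL/6 thymi at embryonic days E12.5, E13.5 and E16.5, at birth (P0) and at 4 weeks (W4), with 1 library at each of the first 2 ages and 2 at each later age. CapFb4 was also followed in Ter119-CD45- cells, fixed after sorting, of newborn mice that carry a lacZ allele of Tbx1 and a null allele of Crkl, each on 1 chromosome (Tbx1+/-Crkl+/-, 3 libraries), and of their wild-type littermates (3 libraries). Both alleles are germline, so every cell of these mice carries them. The third data set is bulk RNA-seq of gp38+CD26+ and gp38+CD26- fibroblasts sorted from wild-type thymi at P0 and at 4 weeks, 6 libraries for each population and age. CD26 is the protein of Dpp4, 1 of the 4 marker genes of CapFb4, and gp38 is podoplanin.

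The thymus is wrapped in a capsule of connective tissue whose fibroblasts lay down collagen and elastic fibres and send growth factors to the epithelium beneath. Fibroblasts that express Pi16 and Dpp4 are found in the outer sheath (adventitia) of vessels and in the capsules and fasciae of many organs, and they are often described as a store from which other fibroblasts arise. Pi16 encodes peptidase inhibitor 16, a protein of the cell surface, Dpp4 a peptidase that cuts short signalling peptides, Anxa3 a calcium-dependent phospholipid-binding annexin, and Creb5 a transcription factor of the family that binds cAMP response elements.

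Libraries of the age series held 28583048 to 93040640 unique molecular identifiers (UMIs), those of newborn mice 4978011 to 31418527, and the bulk libraries 8454267 to 15560221 gene counts with 1 exception. That exception was CD26+ W4 replicate 2 with 25702 counts. Bulk results at W4 include it unless said otherwise, and some of them are also given without it. Cell barcodes found in more than 1 library made up 310 of 36208 cells (0.856%), and 7 of the 879 CapFb4 cells (0.796%) had such a barcode, none of them shared with another CapFb4 cell. Levels below are counts-per-million values (CPM) of the UMIs summed over the CapFb4 cells of a library, with no division by gene length, so they compare a gene between samples and not genes with each other. Where 2 values stand together they are replicate 1 and replicate 2.

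CapFb4 cells were rare in the early embryo and reached a few percent of NETS from E16.5 on. They numbered 6 at E12.5, 56 at E13.5, 340 at E16.5, 245 at P0 and 232 at W4, summed over the libraries of an age. Their share of NETS cells was 0.300% at E12.5 (95% Wilson interval 0.138 to 0.654), 0.996% at E13.5 (0.768 to 1.29), and 2.70% and 2.79% at E16.5 (2.32 to 3.16 and 2.42 to 3.22). The later shares were 2.88% (2.44 to 3.40) and 1.93% (1.6 to 2.32) at P0, and 3.47% (2.83 to 4.25) and 4.38% (3.73 to 5.13) at W4. All 6 libraries from E16.5 on lay above both earlier ones, and both W4 libraries lay above both at P0, while the P0 and E16.5 libraries overlapped. The intervals cover counting error only. The share differed over the ages (edgeR quasi-likelihood F test on cell numbers, adjusted p over 19 labels = 0.0043). E12.5 and E13.5 have 1 library each and are assumed to vary like the later ages, and the adjusted p was 0.0223 without E12.5 and 0.0042 without E13.5. Between W4 and P0 the log2 difference of 0.71 ± 0.30 (SE, n = 2 against 2) did not pass (adjusted p = 0.125), and without P0 replicate 1 it was 1.03 (adjusted p = 0.0204). Between P0 and E16.5 it was −0.20 ± 0.30 (adjusted p = 0.640). CapFb2b, the neighbouring capsular label, ran the other way at the early ages, with 11.9% at E12.5 and 11.5% at E13.5 against 2.77 to 7.41% from E16.5 on.

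**Figure D1:**
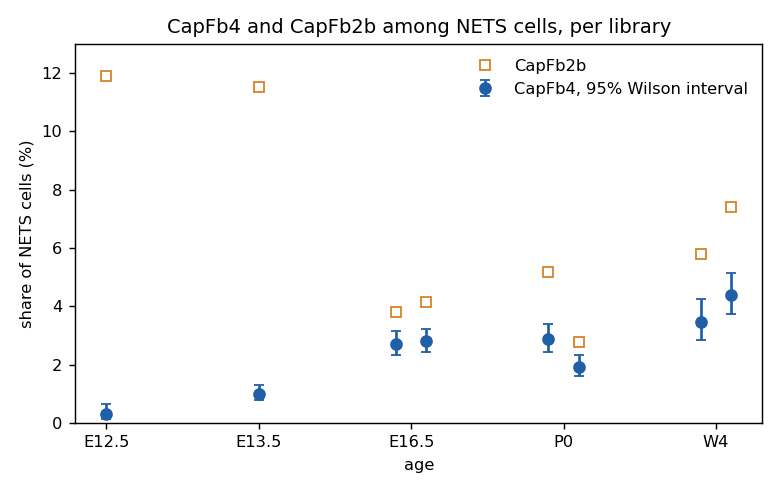
Share of NETS cells labelled CapFb4 (filled circles, bars are 95% Wilson intervals) and CapFb2b (open squares) in each of the 8 libraries, by age, on a linear axis in percent. CapFb4 lies at 0.300% and 0.996% in the 2 early libraries and between 1.93% and 4.38% in the other 6, while CapFb2b falls from 11.9% to between 2.77% and 7.41%.

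From E16.5 on, CapFb4 cells were also the deepest or next to deepest of the labelled cells in their libraries. Their median depth was 17584.5 to 19025 UMIs a cell at E16.5, P0 and W4, which ranked first or second among the 18 or 19 labels of each library, against 10273.5 at E12.5 (rank 18 of 18) and 10387 at E13.5 (rank 14 of 18). CapFb2b had 14103 to 17003 UMIs a cell in the same 6 libraries. Shares of cells with a UMI are therefore given also with every cell thinned to 2000 UMIs.

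All 4 markers were high under the label from E16.5 on and only some of them before. Since the label was made from the expression of these same cells, their levels describe it and do not test it. Pi16 in CapFb4 was 0 CPM at E12.5, where 3 UMIs would be 44.7 CPM, and 36.9 CPM at E13.5. It stood at 1559 and 1755 CPM at E16.5, at 2309 and 1705 at P0, and at 8757 and 8723 at W4. The step from E13.5 to E16.5 was the largest in fold and separated all later libraries from the early ones. In thinned cells, at least 1 Pi16 UMI was seen in 3.57% of CapFb4 cells at E13.5, 89.9% at E16.5, 89.1% at P0 and 100% at W4 (10.7, 100, 97.8 and 100% unthinned). The same shares were 0.464, 48.6, 36.6 and 86.3% in CapFb2b and 0, 0.713, 0.606 and 7.93% in capillary endothelium (EnC), a label that should lack the gene.

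Dpp4 was 31.9 CPM in CapFb4 at E13.5, 211 and 232 at E16.5, 217 and 183 at P0, and 487 at W4 in both libraries. Anxa3 was 70.4 CPM at E13.5, 490 and 465 at E16.5, 657 and 648 at P0, and 1451 and 1555 at W4. Creb5 was already 169 CPM at E13.5 and then 293 and 315 at E16.5, 382 and 400 at P0, and 345 and 346 at W4. Dpp4 and Anxa3 thus had their highest levels at W4 in both libraries, whereas Creb5 had its highest at P0. At E13.5 other labels exceeded CapFb4 in each marker: Pi16 was 66.05 CPM in arterial endothelium (EnA), Dpp4 55.9 CPM in mesothelium, Creb5 193 CPM in CapFb1b and in CapFb1c, and Anxa3 386 CPM in EnA. The 56 cells of E13.5 are accordingly given by their label alone, and the 6 cells of E12.5 entered no test of gene levels.

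**Figure D2:**
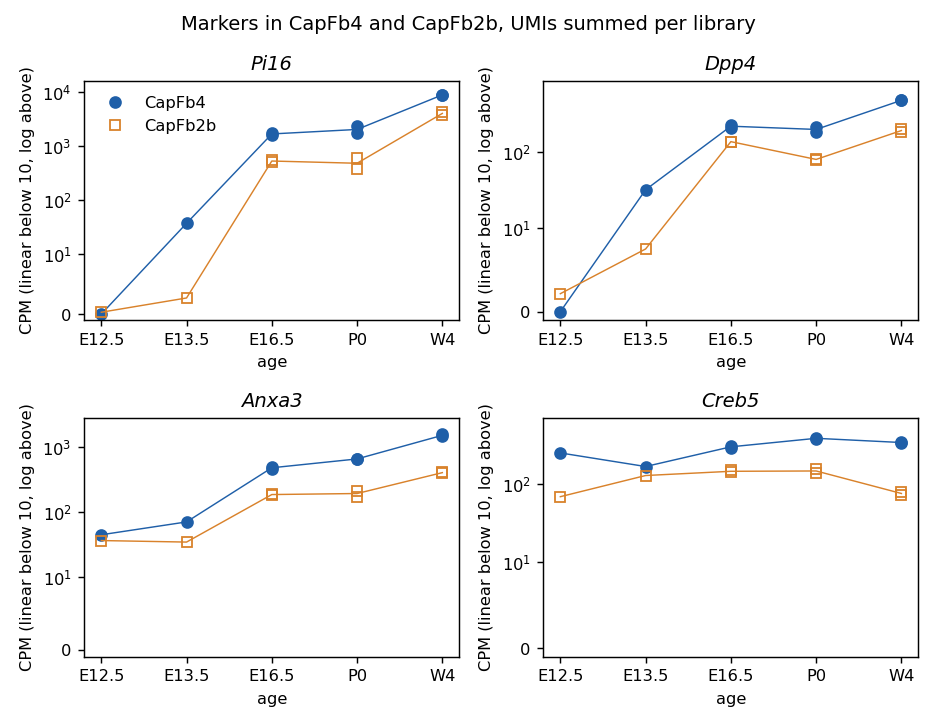
CPM of Pi16, Dpp4, Anxa3 and Creb5 in CapFb4 (filled circles) and CapFb2b (open squares) by age, 1 point per library with lines through the means, on axes that are linear below 10 CPM and logarithmic above. CapFb4 lies above CapFb2b for all 4 genes in every library from E13.5 on, and Pi16 climbs from 36.9 CPM at E13.5 to 8757 and 8723 at W4 in CapFb4 and to 4271 and 3674 in CapFb2b.

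CapFb2b was the label most like CapFb4. Across genes, the log-scale levels of CapFb4 correlated best with those of CapFb2b in each library from E13.5 on, with Pearson's r of 0.946 to 0.967, and with CapFb2a at E12.5 (r of 0.768 over the 6 cells). These are descriptions across genes of 1 library, which share depth and cells, and genes are not independent replicates.

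The 20 genes that stood out most in CapFb4 were chosen by their level in CapFb4 over the highest level in any other label. Labels with at least 20 cells in the library were compared, and the difference was averaged over the 7 libraries from E13.5 on. They are Akr1c18, Dact2, Krtdap, Bmp7, 1700019D03Rik, Cmah, Metrnl, Bmp3, Cd55, Pamr1, Adamtsl4, Pi16, Sema3c, Emilin2, Fbn1, Efhd1, Zfp385a, Sbsn, Lurap1l and Aldh1a3, in order of rank. The last 2 exceeded the next label by 1.16 on the log2 scale, and the first 2 left out were the marker Creb5 (1.11) and Cthrc1 (1.10). Since the label was drawn from these cells, these differences describe it and were not tested. Among the labels compared, CapFb4 had the highest level for 11 of the 20 genes at E13.5. It did so for 19 in P0 replicate 1, where Sbsn was higher in mesothelium, and for all 20 in the other 5 libraries. Mesothelium, with 2 and 5 cells at E16.5 and 7 in P0 replicate 2, was not compared there. The median ratio of CapFb4 to CapFb2b over these genes was 1.92 at E13.5, 2.99 and 3.12 at E16.5, 3.60 and 4.30 at P0, and 4.46 and 5.08 at W4. In 93 of the 140 pairs of gene and library the next highest label was CapFb2b, and in 15 it was mesothelium.

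Akr1c18 encodes the hydroxysteroid dehydrogenase that inactivates progesterone, and it separated CapFb4 from CapFb2b the most. Its level in CapFb4 was 1.68 CPM at E13.5, 92.0 and 89.6 at E16.5, 694 and 595 at P0, and 135.9 and 129 at W4. In CapFb2b it was 0.564, then 7.84 and 2.89, 16.9 and 14.3, and 1.20 and 1.27. From E16.5 on the lowest CapFb4 value lay above the highest CapFb2b value, and the ratio within a library ran from 11.7 to 114 (median 41.3, n = 6). In thinned cells, 8.79% of CapFb4 cells had an Akr1c18 UMI at E16.5, 45.02% at P0 and 19.2% at W4 (39.2, 72.8 and 43.2% unthinned), against 0.776, 1.89 and 0.749% in CapFb2b.

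The secreted signals among the 20 genes were Bmp7 and Bmp3, members of the bone morphogenetic protein family, Sema3c, a semaphorin that guides migrating cells, and Metrnl, a meteorin-like protein. Bmp7 in CapFb4 was 63.7 CPM at E13.5, 220 and 221 at E16.5, 172.9 and 164 at P0, and 124.3 and 122.3 at W4. Bmp3, which opposes other bone morphogenetic proteins, was 28.5 CPM at E13.5, 120 and 125.5 at E16.5, 106 and 157 at P0, and 40.4 and 42.6 at W4. Both were highest before or at birth. Sema3c was 62.1 CPM at E13.5, 812 and 825 at E16.5, 872 and 844 at P0, and 715 and 661 at W4.

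Fbn1 encodes fibrillin-1, the core of the microfibrils on which elastic fibres are built, and Adamtsl4 and Emilin2 encode proteins of the same fibres. Fbn1 was 280 CPM in CapFb4 at E13.5, 2554 and 2693 at E16.5, 3872 and 3837 at P0, and 3126 and 3648 at W4, and in CapFb2b it was 191.6, 983 and 943, 1191 and 1071, and 1542 and 1442. Mfap5, a microfibril protein of the adventitial list, was 138 CPM at E13.5, 5638 and 5657 at E16.5, 7570 and 7803 at P0, and 7207 and 8466 at W4 in CapFb4. Efemp1, the gene of fibulin-3, was 2.60 to 5.03 times its CapFb2b level in the 6 libraries from E16.5 on. Eln and Mfap4, genes of elastin and of an elastin-binding glycoprotein, lay below CapFb2b instead: at W4, Eln was 916 and 1145 CPM against 3313 and 3465, and Mfap4 was 302 and 369 CPM against 1759 and 1557. The genes of this fibre system thus lay on both sides of their CapFb2b level.

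Wnt10b, a Wnt ligand, and Limch1, a regulator of myosin, belong to the adventitial list and were also several times higher in CapFb4 than in CapFb2b. Wnt10b was 49.3 and 42.8 CPM at E16.5, 57.6 and 65.6 at P0, and 49.6 and 54.7 at W4, against 5.75 to 12.1 CPM in CapFb2b. Limch1 was 136.3 and 133 CPM at E16.5, 216 and 208 at P0, and 266 and 269 at W4, against 17.3 to 38.8 CPM. Other genes were low in CapFb4. Cxcl13, the chemokine that draws B cells, was 0.00425 to 0.0747 times its CapFb2b level, and Gdf10, a relative of the bone morphogenetic proteins, 0.0362 to 0.538 times, over the same 6 libraries.

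**Figure D3:**
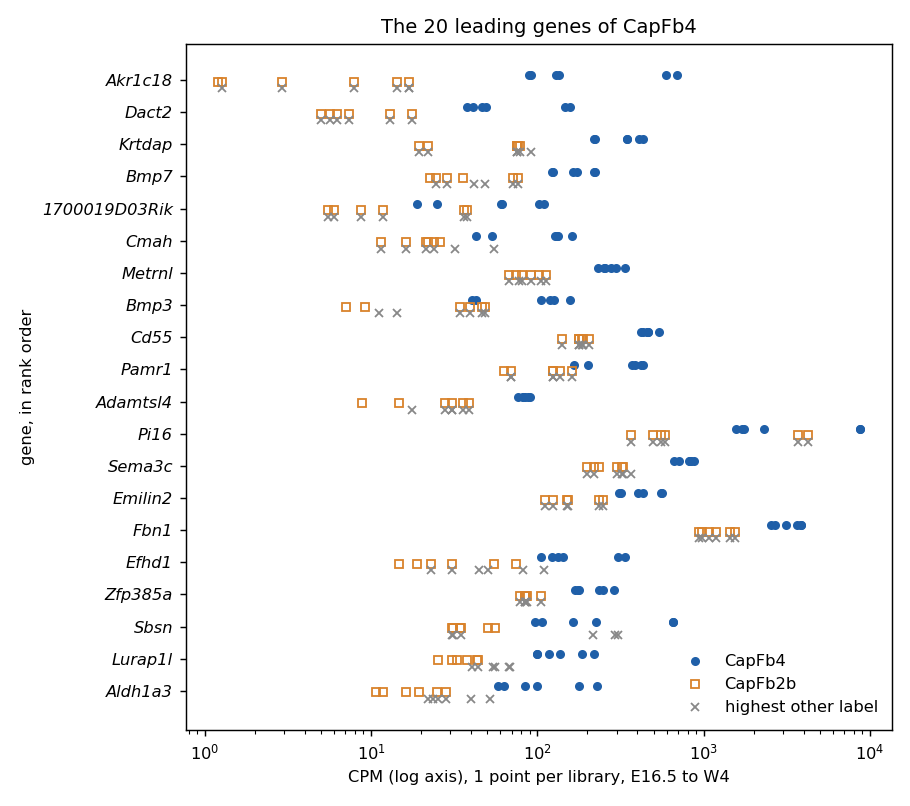
CPM on a logarithmic axis of the 20 genes that stood out most in CapFb4, in rank order, with 1 point per library from E16.5 to W4 for CapFb4 (filled circles), CapFb2b (open squares) and the highest other label (crosses). Among labels with at least 20 cells, CapFb4 holds the highest value for 20 genes in 5 of these 6 libraries. In the sixth, P0 replicate 1, it does so for 19. Mesothelium, with 2 and 5 cells at E16.5 and 7 in P0 replicate 2, is not compared there.

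Krtdap, Sbsn and Dmkn encode secreted proteins best known from the upper layers of the epidermis (keratinocyte differentiation-associated protein, suprabasin and dermokine). The annotation lists Dmkn as the only gene between Sbsn and Krtdap on chromosome 7, and Dmkn, named after its values were seen, is no member of the 20. Krtdap was 0 CPM at E13.5, where 3 UMIs would be 5.03 CPM, then 346 and 347 at E16.5, 409 and 435 at P0, and 220 and 222 at W4. Sbsn was 28.5 CPM at E13.5, 107.3 and 96.8 at E16.5, 164 and 226 at P0, and 657 and 651 at W4. Dmkn was lower, at 27.3 and 20.5 CPM at E16.5, 9.54 and 30.3 at P0, and 49.6 and 51.1 at W4, and it did not exceed 4.50 CPM in CapFb2b. All 3 neighbours were thus above CapFb2b in each library from E16.5 on, while Krtdap was lowest and Sbsn highest at W4.

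Promoters of the leading genes were searched for 2 motifs, because 1 marker is a factor of the cAMP response element family and many immediate early genes bind the AP-1 site. The windows, from RefSeq on GRCm38.p6, run from 250 bases before to 50 bases after each gene's start, and 16 of the 20 genes and 3 of the 4 markers had one. The cAMP response element was searched as TGACGTCA and the AP-1 site as TGANTCA, on both strands. The first was in none of the 16 windows and in 1.88% of all 27025 promoters, and the second in 2 of the 16 and in 7.93% of all. The 2 were those of Krtdap and Sbsn, which are printed below with that of Creb5, the marker gene whose own window holds the cAMP response element. Capitals mark the motif, and the other letters are in lower case.
Krtdap chr7:30787655-30787954 (plus strand): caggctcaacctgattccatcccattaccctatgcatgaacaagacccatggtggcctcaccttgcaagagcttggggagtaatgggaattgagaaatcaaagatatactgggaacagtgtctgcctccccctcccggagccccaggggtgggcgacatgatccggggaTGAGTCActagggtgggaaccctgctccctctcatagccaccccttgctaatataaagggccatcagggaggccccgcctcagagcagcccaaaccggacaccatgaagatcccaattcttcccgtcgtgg
Sbsn chr7:30751221-30751520 (plus strand): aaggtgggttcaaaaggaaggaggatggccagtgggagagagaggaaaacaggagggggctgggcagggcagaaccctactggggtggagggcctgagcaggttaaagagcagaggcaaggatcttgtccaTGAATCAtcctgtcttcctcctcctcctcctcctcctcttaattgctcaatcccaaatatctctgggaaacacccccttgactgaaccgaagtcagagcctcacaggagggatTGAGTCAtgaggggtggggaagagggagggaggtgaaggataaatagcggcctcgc
Creb5 chr6:53287053-53287352 (plus strand): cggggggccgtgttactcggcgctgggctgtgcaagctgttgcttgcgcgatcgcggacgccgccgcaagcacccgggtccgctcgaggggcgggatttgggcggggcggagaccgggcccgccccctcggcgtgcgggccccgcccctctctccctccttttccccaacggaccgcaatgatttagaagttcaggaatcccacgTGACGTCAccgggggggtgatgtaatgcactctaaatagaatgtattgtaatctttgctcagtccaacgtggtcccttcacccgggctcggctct
A match says only that these letters are in the window.

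Markers of the other cell types in the sort were near 0 in CapFb4 apart from the lists of medullary fibroblasts, mural cells and red cells. The 5 mesothelial markers summed to 0 to 23.4 CPM over the 8 libraries, against 1461 to 6245 in mesothelium itself, and Lrrn4 was at 0 in each. The 5 endothelial markers summed to at most 18.4 CPM, the 5 epithelial ones to at most 7.35, the 5 haematopoietic ones to at most 31.2 and the 4 of neural crest to at most 5.03. Medullary fibroblast markers summed to 178.98 CPM at E12.5 and 273 at E13.5. At E16.5 they summed to 516 and 518 CPM, against 795 and 802 in the medullary label MedFb1b. At W4 the sums were 494 and 414 CPM, against 3277 and 3156. Mural cell markers reached 24.5 to 313 CPM. Globin genes, which mark red cells, summed to 0 CPM at E12.5, 8.39 at E13.5, 2162 and 3327 at E16.5, 4024 and 1111 at P0, and 193 and 949 at W4, and in CapFb2b to 1.23 to 4287. Their part in the results was not tested.

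Of 11573 genes tested in CapFb4 over E13.5, E16.5, P0 and W4, 6144 (53.1%) differed between ages (edgeR quasi-likelihood F test on summed UMIs, Benjamini-Hochberg adjusted p under 0.05). E13.5 has 1 library and is assumed to vary like the other ages. Between W4 and P0, 1883 genes rose (16.3%) and 1824 fell (15.8%), with a median log2 fold change of −0.01 over all genes tested. Between P0 and E16.5, 910 genes rose (7.86%) and 654 fell (5.65%). Both are tests of 2 libraries against 2. DESeq2 called 1387 genes in the first and 415 in the second. The 1564 edgeR calls of the second became 936 without E16.5 replicate 1 and 911 without E16.5 replicate 2.

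Among the markers, Pi16 rose 2.21 ± 0.09 (log2 ± SE, adjusted p = 2.2e-15), Dpp4 1.37 ± 0.10 (adjusted p = 9.5e-11) and Anxa3 1.30 ± 0.07 (adjusted p = 1.2e-12) from P0 to W4. Creb5 gave −0.09 ± 0.09 (adjusted p = 0.47). From E16.5 to P0, Pi16 rose 0.30 ± 0.09 (adjusted p = 0.022), Anxa3 0.47 ± 0.07 (adjusted p = 5.8e-05) and Creb5 0.38 ± 0.09 (adjusted p = 0.0031), while Dpp4 gave −0.12 ± 0.10 (adjusted p = 0.48). The Pi16 libraries of these 2 ages overlapped, and its call was lost in DESeq2 (adjusted p = 0.816), without E16.5 replicate 1 (0.206), without P0 replicate 1 (log2 change 0.05, adjusted p = 0.681) and with equal numbers of cells drawn per library (0.0892). The call of Creb5 was lost in DESeq2 (adjusted p = 0.0684), without E16.5 replicate 1 (0.0978) and with drawn cells (0.175).

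The 20 leading genes moved in both directions after birth, 11 up and 6 down, beside 16.3% and 15.8% of all genes tested. Their median log2 fold change was 0.38. Beside Pi16, those that rose included Sbsn (1.85 ± 0.11), Dact2 (1.74 ± 0.11), which restrains Wnt and TGF-beta signalling, Efhd1 (1.57 ± 0.11), a mitochondrial calcium-binding protein, and Aldh1a3 (1.24 ± 0.12), an enzyme that makes retinoic acid. Akr1c18 fell by 2.19 ± 0.10 on the log2 scale, Bmp3 by 1.54 ± 0.16, Pamr1 by 1.12 ± 0.10, Krtdap by 0.84 ± 0.09, Bmp7 by 0.36 ± 0.10 and Sema3c by 0.23 ± 0.07. The edgeR adjusted p of these genes was at most 0.022, and DESeq2 did not call Bmp7 (adjusted p = 0.213) or Sema3c (adjusted p = 0.215), which also lost their calls without W4 replicate 2 (0.0631 and 0.197), nor Cmah (0.488) and Zfp385a (0.0514) among those that rose. Cmah also lost its call without any 1 of 4 libraries (0.0569 to 0.508), with the replicate block (0.0557), without the filter on low counts (0.0581) and with drawn cells (0.148), and Zfp385a without P0 replicate 1 (0.0765), without W4 replicate 1 (0.0579) and with drawn cells (0.179). Before birth, from E16.5 to P0, 8 of the 20 rose and 2 fell (median 0.26), where 7.86% and 5.65% of all genes tested did. Akr1c18 rose by 2.85 ± 0.10 over this step (adjusted p = 1.4e-15). Of these 10, DESeq2 did not call Pi16, Krtdap (adjusted p = 0.281), Aldh1a3 (0.105) or Bmp7 (0.300). Krtdap also lost its call without any 1 of 3 libraries (0.0629 to 0.157) and with drawn cells (0.231), and Bmp7 without either E16.5 library (0.0594 and 0.0814) and with drawn cells (0.123). Emilin2 lost its call without E16.5 replicate 2 (0.0710) and with drawn cells (0.293). Akr1c18 therefore peaked at P0, with both P0 libraries above the other 4. Cd55, the decay-accelerating factor that shields cells from complement, was 422 and 435 CPM at E16.5, 536 and 460 at P0, and 463 and 457 at W4, and passed neither test.

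The list of adventitial fibroblast genes showed 13 of 20 members up and 1 down from E16.5 to P0 (median 0.42), and 12 up and 3 down from P0 to W4 (median 0.46). All genes tested gave 7.86% up and 5.65% down at the first step, and 16.3% and 15.8% at the second. Dpt, the gene of dermatopontin, was 1.68 CPM at E13.5, 853 and 885 at E16.5, 1316 and 1245 at P0, and 1624 and 1645 at W4. Ly6a, the Sca-1 antigen of many progenitor cells, was 0, then 1078 and 1247, 2098 and 1945, and 2591 and 2697 CPM. For both genes the libraries of each age lay above those of the age before. The adventitial list overlaps the leading genes in Pi16, Dact2, Cd55, Sema3c and Bmp7, and it also holds the markers Dpp4 and Anxa3.

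Imprinted genes of fetal growth fell together after birth. Of 13 tested, 12 fell from P0 to W4 and none rose (median −2.68), and from E16.5 to P0, 10 fell and 2 rose (median −0.53). The falls stand beside 15.8% of all genes tested from P0 to W4 and 5.65% from E16.5 to P0. Dlk1, a membrane ligand of immature mesenchyme, was 3252 CPM at E13.5, 8061 and 7939 at E16.5, 3446 and 4871 at P0, and 2.45 and 0.805 at W4, near or below the 1.84 and 1.21 CPM that 3 UMIs would give. H19 was 2029, 4271 and 4409, 6042 and 6516, and 494 and 566 CPM, so it was highest at P0. Cdkn1c, an inhibitor of the cell cycle, was 6377 CPM at E13.5, 9322 and 9549 at E16.5, 3406 and 3485 at P0, and 514 and 497 at W4. Ptn, the growth factor pleiotrophin, which is not imprinted, fell by 6.50 ± 0.10 from P0 to W4 (adjusted p = 3.9e-23), from 1283 and 1503 CPM to 15.9 and 13.3.

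Cell cycle genes fell before birth. From E16.5 to P0, 14 of 16 fell (median −1.36), and from P0 to W4, 10 of 16 fell (median −1.11), with none up in either. All genes tested gave 5.65% and 15.8% down at these steps. In thinned cells, at least 3 different genes of this list were seen in 44.6% of CapFb4 cells at E13.5. The share was 8.97 and 11.4% at E16.5, 2.22 and 3.64% at P0, and 0 and 1.4% at W4. In CapFb2b the shares were 24.0, 13.7 and 17.2, 4.56 and 6.33, and 1.34 and 0.413%. The share was thus higher in CapFb4 at E13.5 and lower in 5 of the 6 later libraries, differences that were not tested because labels are compared here as a description.

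Genes of the MHC class I and interferon-responsive list rose after birth, as did C3. All 15 tested members of the list rose from P0 to W4 (median 2.56), where 16.3% of all genes tested rose and 15.8% fell. H2-K1, a heavy chain of MHC class I, was 0 CPM at E13.5, 11.3 and 7.84 at E16.5, 44.1 and 35.3 at P0, and 415 and 422 at W4. Of 18 cytokines, chemokines and complement genes, 11 rose and 5 fell (median 1.44). C3, the central complement protein, was 4.33 and 4.52 CPM at E16.5, 31 and 22.4 at P0, and 1931 and 1519 at W4, a rise of 6.08 ± 0.14 from P0 (adjusted p = 1.5e-20). Il33, an alarmin held in the nucleus, was 69.7 and 92.0, 118.8 and 72.6, and 453 and 378 CPM. For H2-K1, C3 and Il33 the W4 libraries lay above all others. Pla1a, a phospholipase that cleaves phosphatidylserine, rose by 4.05 ± 0.12 (adjusted p = 2.4e-18), from 31.4 and 30.8 CPM at P0 to 487 and 481 at W4.

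The genes of the same list that fell were inflammatory chemokines and Il6, and these had been highest at P0. Cxcl1, a neutrophil chemokine, was 99.7 and 71.2 CPM at E16.5, 929 and 632 at P0, and 237 and 251 at W4. Ccl2, which draws monocytes, was 104 and 43.7, 404 and 1130, and 52.0 and 189 CPM. Both P0 libraries stood above the others in both genes, and Ccl2 differed widely between the P0 libraries. From E16.5 to P0, 11 of 18 genes of the list rose and none fell (median 0.72), where 7.86% of all genes tested rose and 5.65% fell. Of the 16 immediate early and heat shock genes, which respond to handling of tissue as well as to signals, 11 rose and 2 fell over the same step (median 1.03). Their part in the chemokine result was not tested.

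Matrix genes changed piece by piece after birth, where 16.3% of all genes tested rose and 15.8% fell. From P0 to W4, 10 of 18 matrix proteases and inhibitors rose and 3 fell (median 0.63), among them Timp2, an inhibitor of metalloproteinases, from 1302 and 1270 CPM to 4174 and 4029 (1.76 ± 0.06, adjusted p = 4.4e-17). Pcolce2, which speeds the trimming of procollagen, rose at both steps, from 11 and 9.65 CPM at E16.5 to 172.5 and 123 at P0 and to 971 and 937 at W4. Of 17 collagen genes, 3 rose and 8 fell (median −0.19), Col1a1 and Col3a1 among the latter. Of 20 microfibril and elastic fibre genes, 9 rose and 5 fell (median 0.17). Fbn2, the fetal fibrillin, fell by 2.10 ± 0.10 (adjusted p = 3.0e-14) and Eln rose by 1.20 ± 0.11 (adjusted p = 8.1e-09), while Fbn1 gave −0.09 ± 0.06 (adjusted p = 0.26). Small leucine-rich proteoglycans counted 5 up and 1 down of 9 (median 0.44).

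Signalling lists were mixed as well, beside the 16.3% of all genes tested that rose from P0 to W4 and the 15.8% that fell. Of 16 ligands and antagonists of the BMP and TGF-beta family, 8 fell from P0 to W4 and 1, the antagonist Nbl1, rose (median −0.39). Gdf10 was 181 CPM at E13.5, 133.7 and 133 at E16.5, 33.8 and 45.2 at P0, and 8.57 and 3.62 at W4, falling at each step of age. Of 17 Wnt ligands and modulators, 6 rose and 5 fell (median 0.07), and Sfrp2, a secreted Wnt antagonist, rose by 1.78 ± 0.11 (adjusted p = 5.6e-12). Growth factors and their receptors counted 10 up and 1 down of 19 (median 0.66). Igfbp6, which binds insulin-like growth factor II, went from 811 and 629 CPM to 3692 and 3396 (2.39 ± 0.09, adjusted p = 2.6e-16). Of 24 mesenchymal transcription factors, 9 rose and 5 fell (median 0.23). Agtr2, a receptor of angiotensin II, was 407 and 395 CPM at E16.5, 52.1 and 88.0 at P0, and 7.35 and 3.22 at W4. The signalling genes of CapFb4 thus held members that fell at each step, such as Agtr2 and Gdf10, beside others that rose only after birth.

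Among the largest changes from P0 to W4, Ces1d was at or under 3 UMIs in both P0 libraries and Mrgprg at 0 in one of them, so their fitted folds depend on the counts added by the model and are not given. Mrgprg, an orphan receptor of the Mas-related family, was 0 and 1.99 CPM at P0 and 134.7 and 76.8 at W4, against 2.39 and 1.27 at W4 in CapFb2b. Ces1d, a carboxylesterase, was 0.397 and 0 CPM at P0 and 33.1 and 44.7 at W4. Both were above their P0 values in each W4 library, and DESeq2 did not call Mrgprg (adjusted p = 0.385). Col2a1, a collagen of cartilage, was called between P0 and both other ages, and its level at P0 rested on replicate 1 (68.4 CPM against 2.49). DESeq2 called it at neither step (adjusted p = 0.304 and 0.499).

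The change from P0 to W4 was next compared with that of CapFb2b in the same libraries, to see where the change with age in CapFb4 differed from that in its nearest label. Of 12603 genes, 498 (3.95%) differed, 170 more positive in CapFb4 and 328 more negative (edgeR quasi-likelihood test of the interaction with library as a block, adjusted p under 0.05). Without W4 replicate 1 the count was 275 and without W4 replicate 2 it was 259. DESeq2 called 1.25% of the genes, and 1.11% were called with 56 cells drawn per library. This test concerns the difference between changes, not the difference between labels. Both labels share each library.

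Pi16 rose in both labels and less in CapFb4, with an interaction of −0.98 ± 0.11 (adjusted p = 3.6e-06). With 56 cells drawn per library it was −0.61 (adjusted p = 0.299), no longer past the threshold. CapFb2b went from 584 and 367 CPM at P0 to 4271 and 3674 at W4, so the ratio between the labels was smaller at W4. Creb5 was 382 and 400 CPM at P0 and 345 and 346 at W4 in CapFb4, and in CapFb2b it fell from 140 and 157 CPM to 72.6 and 79.8 (interaction 0.75 ± 0.13, adjusted p = 0.00058, or 0.43 and 0.522 with drawn cells). Dpp4 gave −0.01 ± 0.13 (adjusted p = 1.0) and Anxa3 0.11 ± 0.12 (adjusted p = 0.79).

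Igfbp5, a binding protein of insulin-like growth factors, went in opposite directions. In CapFb4 it was 1893 and 1636 CPM at P0 and 2631 and 3041 at W4, and in CapFb2b 545 and 387 at P0 and 91.7 and 72.7 at W4 (interaction 3.16 ± 0.14, adjusted p = 3.0e-13). CapFb4 was higher at W4 than at P0 in both libraries and CapFb2b lower in both. Of the 5 genes with the most positive interaction and clear levels, Ptx3, a pentraxin that binds microbes and matrix, had one of the highest, with 48.1 and 52.2 CPM at P0 and 71.0 and 46.7 at W4 in CapFb4 against 32.1 and 54.7 and then 3.19 and 3.8 in CapFb2b (3.69 ± 0.33, adjusted p = 1.2e-07). Il33 rose more in CapFb4 (1.64 ± 0.17, adjusted p = 6.7e-07), as did C3 (1.62 ± 0.28, adjusted p = 0.00066).

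The list of microfibril and elastic fibre genes was called in 1 direction. Over all 12603 genes tested, 328 had a more negative change in CapFb4 and 170 a more positive one (3.95% together, median −0.01). Of the 20 members of this list, 10 had a more negative change and none a more positive one (median −0.46). They were Fbn1 (−0.61 ± 0.11), Fbn2, Mfap4 (−1.30 ± 0.19), Mfap5 (−0.46 ± 0.09), Fbln1, Fbln2, Fbln5, Ltbp4, Lox and Loxl2, which encode fibrillins, microfibril proteins, fibulins, a TGF-beta binding protein and the enzymes that cross-link elastin. Adamtsl4, named above as a gene of the same fibres, is outside this list and had a more positive change. Adventitial genes counted 6 lower of 20 (Pi16, Ly6a, Cd34, Wnt2, Mfap5 and Dpt), and matrix proteases and inhibitors 7 lower and 1 higher of 19. On the other side, 5 of 20 cytokines, chemokines and complement genes, 4 of 16 MHC class I and interferon-responsive genes and 6 of 16 immediate early and heat shock genes had a more positive change in CapFb4 and none a more negative one. None of the 16 cell cycle genes was called. The 20 leading genes counted 4 higher (Krtdap, Adamtsl4, Sbsn and Lurap1l) and 3 lower (1700019D03Rik, Pi16 and Fbn1). With drawn cells Adamtsl4 was the one of these 7 that passed, and the others gave adjusted p of 0.0694 to 0.633. Lurap1l and 1700019D03Rik were not called by DESeq2 (0.130 and 0.321), and Fbn1 lost its call without W4 replicate 1 (−0.46, adjusted p = 0.0597). All 4 globin genes were called lower, and their sums in the 2 labels are given above. Hbb-bs and Hbb-bt were not called by DESeq2 (adjusted p = 0.394 and 0.0600) or without P0 replicate 1 (0.194 and 0.0803).

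Fibroblasts sorted by gp38 and CD26 were also measured in bulk, in separate libraries. Since CD26 is the protein of Dpp4, that gene is no finding here. In bulk RNA, fewer cells of a type and less RNA per cell cannot be told apart, and the CD26+ gate also holds other capsular cells. At W4, 475 of 12098 genes were higher in CD26+ than in CD26- cells (3.93%) and 622 lower (5.14%). Of the 20 leading genes 19 were tested, and all 19 were higher (median log2 difference 4.51, against −0.04 over all genes). Fbn1 among them was lost without any 1 of 4 libraries (adjusted p = 0.0518 to 0.0569). Without CD26+ W4 replicate 2 all 20 were tested and higher (median 4.56), and 897 of 12587 genes were higher and 870 lower. At both ages, genes near 0 in CD26- cells, such as Akr1c18, passed the filter on low counts through their CD26+ level. The numbers higher among the leading genes tested, and among the members of the lists tested below, are therefore partly set by that filter.

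Pi16 in CD26+ cells at W4 was 155.6 CPM in replicate 2 and 6942 to 13615 in the other 5 (median 12037 of these 5), against 18.6 to 216 (median 27.7) in CD26- cells. The groups overlapped only through replicate 2, and the difference was 7.08 ± 1.07 (log2 ± SE, n = 6 against 6, edgeR adjusted p = 0.00065), or 7.34 ± 0.76 without that library (adjusted p = 3.7e-05). Akr1c18 was 38.9 to 602 CPM (median 294) against 0 to 2.79 (median 0), with no overlap (adjusted p = 0.00012). Bmp7 was 0 to 112.3 CPM (median 74.9) against 0 to 1.13, and Sema3c 0 to 1011 (median 755) against 5.53 to 14.97, where the lowest CD26+ value was again replicate 2. Creb5 was 0 to 68.5 CPM (median 47.9) against 0 to 8.79 (3.49 ± 0.70, adjusted p = 0.0050, or 0.0034 without replicate 2).

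At P0, 401 of 11967 genes were called, of which 216 were higher in CD26+ cells (1.8%) and the rest lower (1.55%). Of the 18 leading genes tested, 8 were higher and none lower (median 2.39), namely Akr1c18, Bmp7, Cd55, Pamr1, Pi16, Sema3c, Fbn1 and Efhd1. The call of Bmp7 was lost without any 1 of several libraries (adjusted p = 0.0524 to 0.0993) and without the filter on low counts (0.0543). Pi16 was 247 to 548 CPM (median 302) against 0 to 18.1, and Akr1c18 66.1 to 150 (median 110) against 0 in all 6 CD26- libraries. Sema3c was 223 to 592 CPM (median 319) against 6.27 to 37.1. These 3 genes did not overlap between the gates. Creb5, at 19.2 to 58.6 against 6.54 to 40.2 CPM, did (0.58 ± 0.41, adjusted p = 0.57). Of the adventitial genes other than Dpp4, the gene of the gate, 13 of 17 tested were higher at P0 (median 3.20) and 15 of 18 at W4 (median 4.03), with none lower. This list shares Pi16, Dact2, Cd55, Sema3c and Bmp7 with the leading genes, so the 2 counts are not separate results. Microfibril and elastic fibre genes were higher in 8 and lower in 1 of 20 at P0, and higher in 9 and lower in 3 at W4.

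Mesothelial markers also separated the gates at W4, where all 5 were higher in CD26+ cells (median 7.70). Upk3b was 341 to 4222 CPM (median 2283) against 0 to 37.6, and at P0 it was 0 to 270 against 0 to 208. Mural cell markers were lower in CD26+ cells at both ages, 4 of 5 in each. The part of these cells in the bulk differences was not tested. At P0 neither of the 2 mesothelial markers tested passed.

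**Figure D4:**
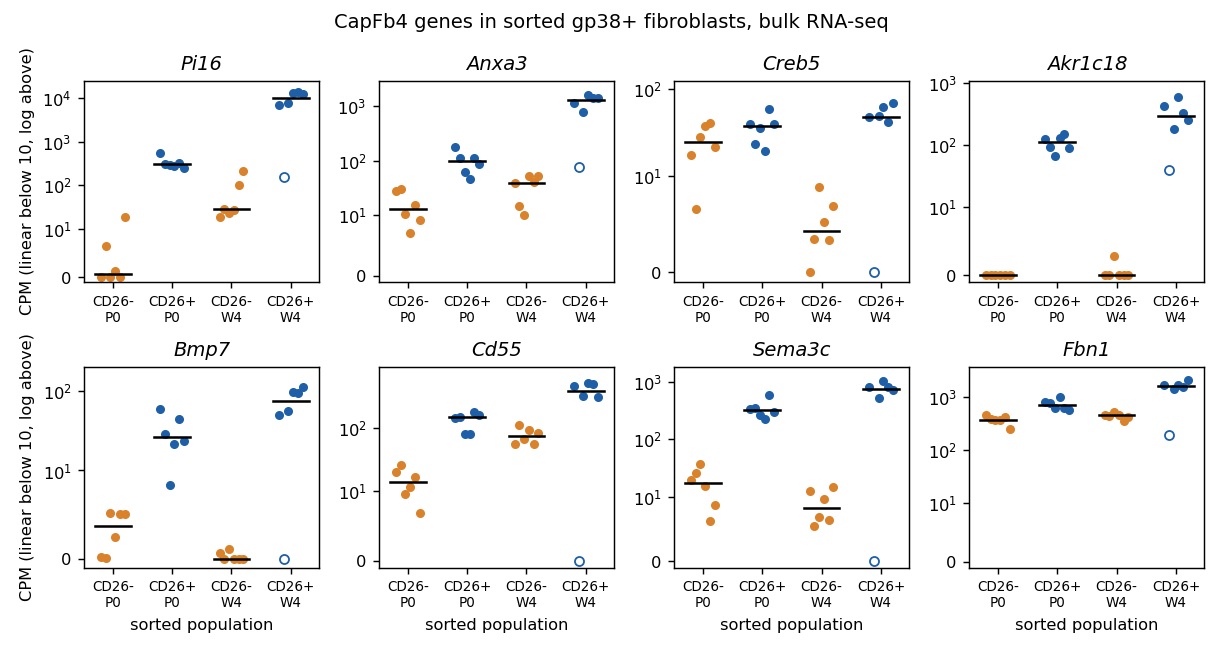
CPM of 8 genes in bulk RNA-seq of gp38+CD26- (orange) and gp38+CD26+ (blue) fibroblasts at P0 and W4, 6 libraries each, on axes that are linear below 10 CPM and logarithmic above; bars are medians, and the white-filled point is CD26+ W4 replicate 2, which had 25702 counts. Pi16 lies at 247 to 548 CPM in CD26+ cells at P0 and at 6942 to 13615 at W4 in the 5 deep libraries, above every CD26- library of the same age.

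The change with age was then read in the CD26+ cells. Between W4 and P0, 460 of 11846 genes were higher (3.88%) and 404 lower (3.41%). Of the 1750 genes that rose in CapFb4 and were tested in bulk, 288 (16.46%) were higher and 23 lower, and of the 1663 that fell in CapFb4, 201 (12.1%) were lower and 23 higher. Without CD26+ W4 replicate 2, 497 of 1796 (27.7%) were higher and 320 of 1693 (18.9%) lower, where 7.27% and 5.93% of all genes were called higher and lower. Pi16 rose by 4.88 ± 0.79 (adjusted p = 0.0015, and 5.11 ± 0.28 without replicate 2), H2-K1 by 4.54 ± 0.30 (adjusted p = 1.1e-06) and Igfbp5 by 3.66 ± 0.49 (adjusted p = 0.00038), and 10 of 12 imprinted genes fell (median −3.77). The globins of red cells were among the largest rises, Hba-a2 from 0.016 to 441 CPM in the mean and Hbb-bs from 0.242 to 732 CPM. Both were nearly absent at P0, so their fitted folds depend on the counts added by the model and are not given. The part of red cell RNA in the other changes was not tested. Creb5 gave 0.59 ± 0.37 (adjusted p = 0.39).

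Akr1c18 differed in sign between the data sets. It rose by 1.64 ± 0.43 from P0 to W4 in CD26+ cells (adjusted p = 0.033, or 0.0530 to 0.0893 without any 1 of several other libraries), with 66.1 to 150 CPM at P0 and, without replicate 2, 178 to 602 at W4, whereas in CapFb4 it fell by 2.19 ± 0.10. Without replicate 2 the rise in CD26+ cells was 1.81 ± 0.30 (adjusted p = 0.0015). The share of CapFb4 among CD26+ cells was not measured at either age. Krtdap likewise gave 2.28 ± 0.63 in CD26+ cells (adjusted p = 0.041, 0.015 without replicate 2, and 0.0513 to 0.0934 without any 1 of several others) and fell in CapFb4.

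In the newborn data, 322 of 21451 cells carried the CapFb4 label. The libraries were shallow, with median depths of 2454, 3135 and 2575.5 UMIs per CapFb4 cell in Tbx1+/-Crkl+/- and 2593.5, 4779.5 and 6802 in wild type. CapFb4 made up 2.94, 1.98 and 2.72% of NETS cells in Tbx1+/-Crkl+/- mice and 3.23, 1.91 and 3.40% in wild type, with means of 2.55% ± 0.50 and 2.85% ± 0.82 (SD, n = 3 each). The groups overlapped, and the difference of −0.297 percentage points gave p = 0.60 in a two-sided exact permutation test, which with 3 against 3 cannot go below 0.10. Pi16 was 520, 946 and 706 CPM in Tbx1+/-Crkl+/- and 702, 837 and 1364 in wild type, which also overlapped.

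The 2 altered genes could not be checked in these cells. Tbx1, the transcription factor gene of the 22q11.2 region, was 0 CPM in all 3 Tbx1+/-Crkl+/- libraries and 10.97, 0 and 2.26 CPM in wild type, where both values above 0 stood for 2 UMIs. Crkl, an adaptor of growth factor receptors, was 27.4, 16.7 and 40.7 CPM against 16.46, 44.0 and 18.1. In the age series Tbx1 was 74.6 CPM in the 6 CapFb4 cells of E12.5 (5 UMIs) and 30.2 CPM at E13.5 (18 UMIs), and from E16.5 on it was 0 in 5 libraries and 0.612 CPM (1 UMI) in 1. Other labels with at least 20 cells had 0.968 to 59.2 CPM at E12.5 and 0 to 62.5 at E13.5, where arterial endothelium (62.5 CPM) and the label EnVL (32.8 CPM) lay above CapFb4.

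Between the genotypes, 4 of the 3386 genes tested in CapFb4 differed (0.118%, edgeR quasi-likelihood test, n = 3 against 3), 3 higher and 1 lower in Tbx1+/-Crkl+/-. The number was 1 without Tbx1+/-Crkl+/- replicate 2, 17 without Tbx1+/-Crkl+/- replicate 1 and 120 without wild-type replicate 1. The lower gene was Tnfrsf11b, which encodes osteoprotegerin, the decoy receptor of RANKL, the cytokine that drives medullary epithelial cells to mature. It was 41.1, 44.5 and 33.9 CPM in Tbx1+/-Crkl+/- and 170, 264 and 191.8 in wild type, a fall by 2.33 ± 0.40 on the log2 scale (adjusted p = 0.0013) with no overlap. It passed in each alternative run. Tnfrsf11b was low in CapFb2b, at 6.58 ± 6.11 and 13.6 ± 11.9 CPM (SD), and in the newborn cells labelled PcTEC, at 3.48 ± 1.12 and 1.58 ± 0.777. In bulk it was 14.8 to 98.3 CPM in CD26+ cells at P0 and 0 to 19.97 in CD26- cells. Wild-type CapFb4 therefore held more Tnfrsf11b than these labels in each library.

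The 3 higher genes were Prss16, a protease of cortical epithelial cells, H2-Aa, a chain of MHC class II, and Tnc, the matrix protein tenascin C. Prss16 was 177 ± 59.1 CPM in Tbx1+/-Crkl+/- and 52.5 ± 22.7 in wild type (1.76 ± 0.36 log2 ± SE, adjusted p = 0.013), H2-Aa 372 ± 190 against 122.1 ± 16.6 (1.65 ± 0.33, adjusted p = 0.013), and Tnc 112.8 ± 46.6 against 31.7 ± 7.44 (2.06 ± 0.43, adjusted p = 0.013). All 3 are abundant in PcTEC (2256 and 2365 CPM of Prss16 in the 2 genotypes), and PcTEC made up 33.5, 25.9 and 24.7% of the cells of the Tbx1+/-Crkl+/- libraries and 16.9, 22.4 and 17.2% of those of wild type. CapFb2b had nearly the same levels as CapFb4 of Prss16, at 186 ± 90.6 and 58.3 ± 20.3 CPM. Epcam was 45.4 ± 17.0 CPM in Tbx1+/-Crkl+/- and 17.1 ± 11.9 in wild type, and Krt8 216 ± 133 against 114.5 ± 20.5. Psmb11, the thymoproteasome subunit of cortical epithelial cells, was 15.6 ± 16.8 against 15.8 ± 6.52 CPM, with 159.6 and 266 in PcTEC. The part of epithelial RNA in these 3 calls was not tested. Without Tbx1+/-Crkl+/- replicate 2 none of the 3 passed (adjusted p = 0.165, 0.165 and 0.237). H2-Aa was also lost without wild-type replicate 2 (0.0667) and Tnc without wild-type replicate 3 (0.156) and with the replicate block (0.0624). DESeq2 called neither Prss16 (0.116) nor Tnc (0.124). None of the 19 leading genes tested was called. Krtdap, at 82.2, 83.4 and 61.1 CPM against 219, 171 and 271, did not overlap between the genotypes and gave −1.56 ± 0.36 (adjusted p = 0.051, or 0.0074 to 0.048 without any 1 of 3 libraries and 0.015 without the filter on low counts). No other alternative run called it, and it rested on 6, 15 and 9 UMIs in the Tbx1+/-Crkl+/- libraries. Bmp3 (54.8, 61.2 and 33.9 CPM against 131.6, 126.6 and 78.97), Lurap1l and Emilin2 did not overlap either. How many of all genes tested lay without overlap was not counted. At an unadjusted p under 0.05 the test gave 390 genes, and DESeq2 called 2 after adjustment.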

How the data were processed

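Cells were read with the 10x Chromium 3′ chemistry, and bulk RNA with an ultra-low-input protocol. The authors deposited raw UMI counts per gene and cell with 1 label per cell, after removing, by their methods, cells with at most 1000 genes (the deposited cells start at 999) or at least 5% mitochondrial UMIs, doublets (DoubletFinder) and contaminating clusters, and after integration and label transfer in Seurat. They deposited the bulk data as read counts per Ensembl gene. The submitters' processing notes name Cell Ranger 3.1.0, STAR 2.5.3a, HTSeq and mm10, with no role given. These labels were used without change. Bulk tables hold 98 entries that name no gene (7.81 to 29.4% of counts), which were left out, and 37607 of 39179 IDs received a symbol. Levels of near-identical copies are uncertain (the heat shock genes Hspa1b with Hspa1a, the beta globins Hbb-bt with Hbb-bs, the alpha globins Hba-a2 with Hba-a1).

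UMIs were summed over the CapFb4 cells of each library with at least 20 such cells (10 in newborn mice). Tests used edgeR 4.0.16 in R 4.3.3 (filterByExpr, TMM, quasi-likelihood) with Benjamini-Hochberg adjustment over all genes tested and a threshold of 0.05, and DESeq2 1.42.0 as an alternative. Python 3.11.15, numpy 2.4.6, scipy 1.17.1, pandas 2.3.3 and matplotlib 3.10.9 served for the rest. Each script with a test was tested on simulated data. There, at the threshold of 0.05, false calls made up 8.54% of calls for W4 against P0 in CapFb4. They made up 9.85% for P0 against E16.5 and 7.74% for the test against CapFb2b. A log2 change of 1 was recovered in 83, 84 and 61% of changed genes in these tests. The figure was 44.4% by genotype and 14.3% between the bulk gates at W4. Only well-counted genes were changed in the simulations, at most 100 at each size of change. Far more genes were called between ages in the data, so these shares need not hold there, nor for genes with low counts. Leading genes needed a mean of 50 CPM and were ranked on log2(CPM + 1) against the highest other label with at least 20 cells. For each test the genes eligible to be named were the 10 called with the largest fold in each direction (5 for the interaction and the genotype), without overlap of the groups and with a group mean of at least 20 CPM, beside the markers, the leading genes and the members of 23 gene lists. Members and lists were chosen with earlier results of these data known. Thinned shares use 2000 UMIs per cell. Intervals are 95% and cover counting error only, and 3 counts set the limit for a zero. By the study's methods, E12.5 and E13.5 each pool thymi of 2 litters, the later ages of the series come from 2 thymi each, and the newborn groups from 3 mice each. For the bulk libraries no source used here says which come from separate mice, so there p-values measure the spread between libraries, which may be technical. Replicate numbers were not used to pair the libraries in the main tests. Deviations of same-numbered libraries correlated at −0.0328 to 0.0145 in the age series and at −0.345 to 0.0345 in newborn mice. With 2 libraries per age, the deviations of replicate 1 mirror those of replicate 2. Such values cannot show whether libraries were paired. Other populations of the series were not analysed here.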

Additional observations from a re-analysis of the deposited data

Results flagged for a closer look

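In each bulk group of 6 libraries, the library farthest from the rest was looked for in the total counts and in the leading and marker genes. Of 96 groups of values 15 had such a library. A library above 0 is always flagged where the other 5 are at 0, so no rate of flags by chance is given. CD26+ W4 replicate 2 accounted for 4 of the 15. Its total was 25702 counts, where the next lowest library of its group had 12315710, its Dact2 stood at 350 CPM, its Pamr1 at 0 CPM and its Fbn1 at 195 CPM, and these genes were at 25.98 CPM, 272 CPM and 1434 CPM in the nearest library. Among CD26- libraries at W4, replicate 3 had Akr1c18 at 2.79 CPM where the other 5 were at 0, and replicate 6 had 1700019D03Rik at 7.62 CPM and Sbsn at 5.05 CPM. Among CD26+ libraries at P0, replicate 1 had the highest Pi16 (548 CPM) and Dact2 at 1.93 CPM with the other 5 at 0, and replicate 5 had the highest Sema3c (592 CPM). Among CD26- libraries at P0, replicate 6 had Pi16 at 18.1 CPM and Bmp3 at 19.5 CPM, replicate 4 had Dpp4 at 25.9 CPM, replicate 3 had Dact2 at 2.09 CPM and replicate 1 had Efhd1 at 2.16 CPM.

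The change from P0 to W4 differed most between CapFb4 and CapFb2b in 10 genes by the test of the interaction (log2, edgeR quasi-likelihood). It was more positive in CapFb4 for Emb (4.11), Ptx3 (3.69), Tmeff1 (3.38), Tcf21 (3.37) and AW112010 (3.17). Tcf21, a transcription factor of visceral mesenchyme, was 31.2 and 20.4 CPM at P0 and 2.79 and 2.53 at W4 in CapFb2b, and 8.35 and 1.99 and then 7.35 and 4.83 in CapFb4. It was more negative for Hbb-bt (−7.21), Fndc5 (−6.02), Gatm (−5.51), Hbb-bs (−4.55) and Cpxm2 (−4.16). Fndc5 was at 0 in both W4 libraries of CapFb4, and Gatm and Cpxm2 did not exceed 3.67 CPM in CapFb4, so these 3 values depend on the counts that the model adds. Hbb-bs and Hbb-bt are the beta globins of red cells and near-identical copies. Without P0 replicate 1 Cpxm2 gave −0.36 (adjusted p = 0.958), Hbb-bt −4.25 (0.0803) and Hbb-bs −3.11 (0.194), and without W4 replicate 1 Hbb-bs gave −1.87 (0.181) and Fndc5 −6.56 (0.0525). Without W4 replicate 2 Fndc5 gave −4.95 (0.530) and Gatm −7.66 (0.139), and without P0 replicate 2 Gatm gave −5.74 (0.118). DESeq2 did not call Hbb-bt (0.0600) or Hbb-bs (0.394). With 56 cells drawn per library Hbb-bt, Fndc5, Gatm, Hbb-bs, Tcf21 and AW112010 lost their calls (0.146 to 0.765).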

How the results depend on the processing

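DESeq2 called 1387 genes between W4 and P0 in CapFb4 (3707 with edgeR), 415 between P0 and E16.5 (1564), 3133 over the ages (6144), 2 by genotype (4), and in bulk 905 between the gates at P0 (401) and 1747 between W4 and P0 in CD26+ cells (864). In the test of whether the W4 to P0 difference was unlike that in CapFb2b, it called 1.25% of genes (3.95%). Cells drawn to 56 per library gave 2077 and 565 calls in the first 2 and 1.11% in the test against CapFb2b. Leaving out 1 library gave 2642 to 3679 and 911 to 1559 in these, 2.07 to 4.27% in the test against CapFb2b, 5040 to 6076 over the ages, 1 to 120 by genotype, 897 to 1767 and 296 to 484 between the gates at W4 and P0, 599 to 1641 between W4 and P0 in CD26+ cells, and a log2 difference of 0.45 to 1.03 for the share of W4 over P0. Without a filter 12 genes were called by genotype. A minimum of 5 cells kept 12 of the 20 leading genes. No call turned its direction in an alternative run. The causes were not tested, other than that drawn cells and left-out libraries hold fewer counts or samples.

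The block of the replicate number gave 3675, 1548, 6067 and 3 calls (W4 and P0, P0 and E16.5, over the ages, genotype), and an adjusted p of 0.0196 for the share over the ages. The label prefixes of the bulk libraries, as a term, gave 1094, 381 and 796 calls, where 1097, 401 and 864 were called without it. The newborn libraries gave 3386 genes deep enough to test and the age series 11573, and the 6 CapFb4 cells of E12.5 allow no test of gene levels.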
